A study of Mus musculus with 58 samples.

Results

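The ribosome of the cytosol is built from RNA and from the cytosolic ribosomal proteins, one gene for nearly every protein, and the genes described here are those whose symbols start with Rpl (large subunit) or Rps (small subunit) followed by a number, with at most one letter and one further digit behind it. This rule on symbols, which used no measured value, found 85 of the 55376 genes counted, 50 of the large and 35 of the small subunit. GENCODE lists 79 of the 85 as protein coding and 6 as other types, and the genes lie on 19 chromosomes, with 4 of those measured on the X chromosome. The 305 ribosomal protein pseudogenes named with -ps were left out. Ribosomal proteins that carry other symbols, such as Rplp0, Rpsa and Rack1, were kept apart as a list of their own.

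RNA was sequenced from hematopoietic stem cells (HSCs) of male C57BL/6 mice. The diet experiment asked what calorie restriction (CR), eating less without malnutrition, and a return to free feeding do to old and young HSCs. Old mice were 24 to 26 months of age and came from an aged rodent colony. They had been fed ad libitum (OAL, 4 libraries), on 40% CR from 3 to 4 months of age onwards (OCR, 4 libraries), or refed ad libitum for 4 weeks after that restriction (OCRRF, 2 libraries). Young mice were 3 to 4 months of age and came from a commercial breeder. They were fed ad libitum (YAL, 4 libraries), on 20% CR for 1 week and 40% CR for another 3 weeks (YCR, 4 libraries), or refed for 4 weeks after that (YCRRF, 4 libraries). Their HSCs were sorted as LSK cells, which carry Sca-1 and c-Kit but no lineage markers, that were positive for CD150 and lacked CD34 and Flk2. A separate experiment took aged HSCs transduced with lentiviruses and transplanted into lethally irradiated young female recipients. The donor cells were sorted again as LSK CD48- CD150+ CD45.2+ cells. These carried a scrambled control with GFP (2 libraries), shRNA against Kdr with GFP (4 libraries), both scrambled controls (2 libraries), or shRNAs against Kdr and Bmpr1a together (4 libraries, with shRNA1 against Bmpr1a in replicates 1 and 2 and shRNA2 in replicates 3 and 4). Accessible chromatin was measured in OCR and OCRRF HSCs, H3K4me3 and H3K27me3 in OCR HSCs, and binding of the transcription factor PU.1 in OAL, OCR and OCRRF HSCs. The labels do not tie the replicates to separate animals, so p-values measure the spread between these libraries.

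As background, the ribosomal proteins are made in near-equal numbers and assembled with ribosomal RNA in the nucleolus. Their mRNAs begin with a C followed by a run of pyrimidines, the 5′ terminal oligopyrimidine (TOP) tract, through which the kinase mTORC1 and the RNA-binding protein Larp1 govern how well they are translated. HSCs are known for an unusually low rate of protein synthesis. Rpl5 and Rpl11 bind Mdm2 and so activate p53 when ribosome assembly fails. Mutations in RPS19, RPL5, RPL11, RPL26 and related genes cause Diamond-Blackfan anemia, and loss of 1 copy of RPS14 contributes to the 5q- syndrome.

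The start windows are shown for the runs of pyrimidines near the annotated start of genes that recur in the results. Some of the runs lie before or after the RefSeq start, so they are not shown to be the TOP tract of the mRNA. They were read from RefSeq promoters (GRCm38, the mm10 build of the files) and are printed 5′ to 3′ on the strand of the gene, with the longest pyrimidine run of at least 8 letters in capitals (the first where runs are equally long, as in Rps27l). The windows lie at chr9:64173361-64173390 (+) for Rpl4, chr4:86857353-86857382 (-) for Rps6, chr5:107900500-107900529 (+) for Rpl5, chr4:136053369-136053398 (-) for Rpl11, chr7:45128722-45128751 (-) for Rpl13a and chr9:66946056-66946085 (+) for Rps27l.
Rpl4: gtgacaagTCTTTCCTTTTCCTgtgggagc
Rps6: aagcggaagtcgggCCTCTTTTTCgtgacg
Rpl5: tacagccaCTCTTTCTCacgtcgcttgcgt
Rpl11: aggccacggggccggaagTCTCCCTCTCTC
Rpl13a: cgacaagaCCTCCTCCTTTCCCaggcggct
Rps27l: cgcctccaCTCCTCTCCactcctccccgcc
No run of that length stands near the RefSeq start of Rpl26 at chr11:68901551-68901580 (+), of the paralogue Rpl7l1 at chr17:46782642-46782671 (-) or of Rpl10l at chr12:66284387-66284416 (-).
Rpl26: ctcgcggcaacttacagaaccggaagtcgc
Rpl7l1: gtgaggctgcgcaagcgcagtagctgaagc
Rpl10l: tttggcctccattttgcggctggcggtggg

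RefSeq promoters were at hand for 61 of the 85 genes. A pyrimidine run of at least 8 letters (C or T on the gene's strand) within 25 bases of the start was found in 33 of them, or 54.1%, against 22.25% of 27025 genes. The letters CCGGAAG, an ETS-type core searched on both strands of the stretch from 250 bases before to 50 after the start, stood in 24 of them (39.34% against 9.93% of all genes). The letters AAGATGG, a YY1-type core that may include the start codon, stood in 10 (16.39% against 7.28%). TATAAA was found in 1 (1.64% against 2.68%) and TATA in 7 (11.48% against 8.63%), where every TATAAA match is also a TATA match. These are matches of letters and not measured binding sites.

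The 34 RNA libraries held between 11102898 counts (YCRRF replicate 4) and 44780217 counts. Levels are given as CPM, counts brought to a common library total after scaling by TMM factors, and the diet and transplant experiments, which used different RNA extraction, kits and sequencers, were scaled apart. HSC markers were detected in every group, with 10 of 10 listed genes above 0 and a summed level of 4137 to 5802 CPM in the diet libraries. B and plasma cell genes summed to 89.1 to 1425 CPM in YCR against 98.1 to 196 CPM in YAL. Granulocyte and monocyte genes summed to 936 to 2828 CPM under the GFP scramble and 1460 to 3974 CPM under the Kdr shRNA. They summed to 2531 to 5738 CPM in the double scramble and 965 to 3926 CPM with both shRNAs. HSC markers summed to 3999 to 4222, 3419 to 3801, 3521 to 3536 and 3259 to 3728 CPM in these groups in that order. The part of other cells in the results was not tested. Old libraries detected 42071 to 46646 genes and young libraries 22209 to 33496. YCRRF replicate 3 stood apart from all others. It placed 7.61% of its counts on the 85 genes and 4.09% on mitochondrial genes, where the other YCRRF libraries placed 1.09% to 1.54% on mitochondrial genes. In the transplanted cells, Kdr stood at 6.04 and 6.07 CPM under the GFP scramble and at 1.93, 2.21, 3.28 and 2.03 CPM under the Kdr shRNA. With both shRNAs it stood at 1.24, 0.555, 1.60 and 1.35 CPM, against 3.97 and 4.62 CPM with both scrambles. Bmpr1a stood at 4.44, 0.656, 2.22 and 0.595 CPM with both shRNAs against 5.21 and 4.43 CPM, so replicate 1 overlapped its controls. None of these differences passed edgeR's quasi-likelihood test across all genes (Benjamini-Hochberg adjusted p = 0.247, 0.272 and 0.602).

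The share of all counts that fell on the 85 genes was 2.78%, 2.95%, 3.24% and 3.50% in the OAL libraries, and 3.22%, 2.84%, 2.93% and 2.84% in the OCR libraries. The OCRRF libraries gave 3.20% and 3.23%. The 3 old groups overlapped. YAL libraries gave 3.81%, 3.21%, 3.76% and 3.48%, YCR libraries 3.47%, 3.71%, 3.51% and 4.13%, and YCRRF libraries 2.96%, 3.75%, 7.61% and 3.13%. The mean was 3.12% ± 0.316 in OAL and 3.57% ± 0.278 in YAL (SD, n = 4 each), and 2 of the 4 YAL libraries lay within the OAL range. Transplanted cells gave 2.17% to 2.70% in all 12 libraries, below every diet library. That comparison is also one of extraction, kit and sequencer, and these cannot be told apart. In bulk RNA, fewer cells of a type and less RNA per cell cannot be told apart either, and a share says nothing of the amount of RNA per cell.

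**Figure D1:**
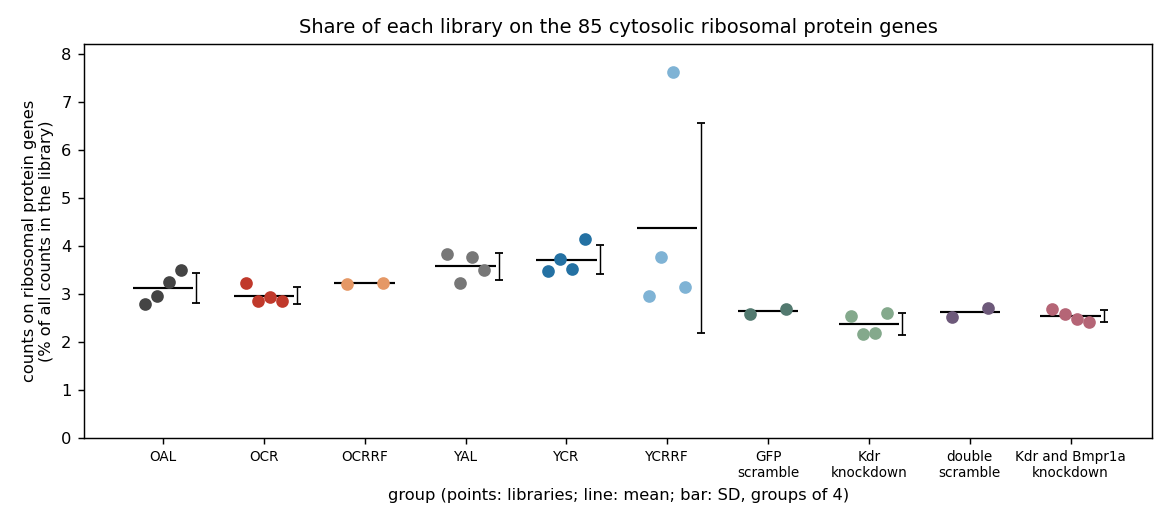
Share of each library's counts on the 85 cytosolic ribosomal protein genes (y axis, % of all counts) for the 6 diet groups and the 4 groups of transplanted cells (x axis). Points are libraries, lines are means and bars are SDs of groups of 4; YCRRF replicate 3 stands at 7.61%, the other diet libraries lie between 2.78% and 4.13%, and the transplanted libraries lie between 2.17% and 2.70%.

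Among the 85 genes, 73 had a mean level over the diet libraries above 100 CPM, 12 were under 20 CPM and 0 lay between. A level of at least 5 CPM over all libraries was reached by 77 genes (45 of the large and 32 of the small subunit), and the descriptions by gene use these 77. Rpl10l, a retrogene of Rpl10 used in the testis, was the one gene under 1 CPM in every library, with 51 counts in 11 libraries and at most 0.321 CPM. Per kilobase of exon, Rpl32 of the large subunit was highest in OAL at 1009 ± 125 CPM per kb (SD, n = 4), followed by Rpl36 (896 ± 140) and Rps3a1 (876 ± 82.2). The ranges of mean ± SD of these 3 overlap. In YAL the order began with Rpl32 (1141 ± 78.3 CPM per kb), Rps3a1 (1048 ± 65.5) and Rpl36 (1022 ± 90.2), whose ranges of mean ± SD also overlap. The order of the 77 levels hardly moved between groups: Spearman's rho of the mean levels was 0.997 between OCR and OAL, 0.988 between OAL and YAL and 0.933 between OAL and the GFP scramble, across genes that share each library.

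A few universal ribosomal proteins were counted low. Rpl13a, Rpl24 and Rps10 stood under 20 CPM on average over the diet libraries, where annotated genes overlap 35.4%, 47.0% and 20.6% of their exons on the same strand (Gm45713, Gm28037 and the readthrough RPS10-NUDT3). How the counting divided reads between overlapping genes is not given in the sources used here, so the levels of these 3 genes are uncertain. More than 20% of the exon length was shared with another gene in 11 of the 85 genes, and 58 have at least 1 named pseudogene that could take or give reads. Of the 305 pseudogenes named -ps, 106 passed the filter for testing between OAL and YAL, and 1 of these was called lower.

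Several ribosomal proteins have a paralogue, a second gene for a closely related protein. Rpl7l1, which works in ribosome assembly, stood per kilobase at 24.8% ± 3.04 of Rpl7 in OAL and 27.8% ± 2.59 in YAL (SD, n = 4). In the transplanted cells it stood at 48.4% and 48.7% on average under the 2 kinds of scramble (n = 2 each) and at 66.1% ± 17.0 under the Kdr shRNA (n = 4). Rpl22l1 stood near its partner Rpl22, at 83.6% ± 5.64 in OAL, 89.0% ± 2.05 in OCR, 75.7% ± 7.02 in YAL and 68.2% ± 4.26 in YCR. The muscle gene Rpl3l stayed under 0.21% of Rpl3 in every library, and Rpl39l under 1.02% of Rpl39.

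Lifelong restriction gave no call among these genes. Of 82 genes tested between OCR and OAL, 0 were called by edgeR's quasi-likelihood test (Benjamini-Hochberg adjusted p under 0.05 over all genes and a fold change over 1.2), where 5.57% of all 27150 genes were called (2.54% higher and 3.03% lower). DESeq2 also called 0, and 4 genes had an unadjusted p under 0.05, against 16.2% of all genes. The estimates leaned down, 71 negative and 11 positive, with a median of -0.10 on the log2 scale against 0.02 over all genes, and a median standard error of 0.09 for a single gene. Without OAL replicate 4 the median was -0.02 (48 negative and 34 positive), and without OCR replicate 1 it was -0.16, with 15 genes at an unadjusted p under 0.05 (18.3%, against 14.3% of all genes). Without OAL replicate 1 there were 12 such genes (14.6% against 13.9%). No gene was free of overlap between the groups, where 4.22% of all genes were higher and 7.13% lower without overlap. The 4 genes were Rps27, Rpl3, Rpl13 and Rps27l. Rps27 stood at 535, 484, 468 and 491 CPM in OCR against 523, 546, 621 and 658 CPM in OAL (log2 -0.23 ± 0.08, adjusted p = 0.128 by edgeR). Rpl3 stood at 974 ± 25.2 against 1123 ± 103 CPM (log2 -0.19, adjusted p = 0.221 by edgeR), and Rpl13 had an estimate of -0.17.

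Of the 4 genes, Rps27l alone had a positive estimate. It is a paralogue of Rps27 and a known p53 target. Its levels were 110, 112, 125 and 113 CPM in OAL, 145, 140, 116 and 121 CPM in OCR, and 95.4 and 111 CPM in OCRRF. OCR was higher than OAL by 0.20 ± 0.09 (log2 ± SE, edgeR adjusted p = 0.223), and OCRRF lower than OCR by 0.40 ± 0.13 without overlap of the groups (log2 -0.40, adjusted p = 0.0761). Per kilobase, Rps27l stood at 25.2% ± 2.17 of Rps27 in OAL, 33.7% ± 2.61 in OCR (SD, n = 4 each) and 23.6% in OCRRF (n = 2). In the young groups the ratio stayed between 26.5% and 28.9% on average. DESeq2 called the fall of Rps27l after refeeding (log2 -0.49, adjusted p = 0.0123), as did edgeR without OCR replicate 3 (adjusted p = 0.0166) or without OCR replicate 4 (adjusted p = 0.0202). Over 16 other settings the estimate ranged from -0.54 to -0.26, and most of these settings did not call it.

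Refeeding of old mice gave no call by edgeR's test either. In simulated counts of this comparison, 41% of 1.5-fold changes of well-counted genes were recovered, so changes of this size can be missed. Between OCRRF and OCR, 0 of 82 genes were called, against 3.41% of 32577 genes (0.694% higher and 2.71% lower), and 1 had an unadjusted p under 0.05 (16.9% of all genes). The median over the genes was -0.03 against 0.11 over all genes tested. With library totals in place of TMM factors both medians rose, to 0.11 and 0.24, so the sign of the group median depended on the scaling. It was also positive without OCR replicate 1 (0.01) and without OCRRF replicate 2 (0.03). Without overlap between the groups, 5 genes were higher (17.4% of all genes) and 1 was lower (10.9% of all genes). Between OCRRF and OAL, 0 of 83 genes were called by edgeR (4.14% of all genes, 1.66% higher and 2.48% lower), 2 by DESeq2 (Rps19 and Rpl35, both lower) and 6 at an unadjusted p under 0.05 (26.9% of all genes), with a median of -0.08 that became 0.05 with library totals and 0.02 without OAL replicate 4. Without overlap, 1 gene was higher (22.8% of all genes) and 5 were lower (15.9%).

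Restriction of young mice gave no call either. Between YCR and YAL, 0 of 81 genes were called by edgeR or by DESeq2, against 0.257% of 18680 genes by edgeR (0.0642% higher and 0.193% lower), and 2 had an unadjusted p under 0.05 (9.29% of all genes). The estimates leaned up, 62 positive and 19 negative, with a median of 0.05 against 0.01. Without YCR replicate 4 the median was -0.00 (37 positive and 44 negative), and without YAL replicate 2 it was -0.00 (39 and 42). No gene was free of overlap, against 2.49% of all genes higher and 3.84% lower. The highest was Rpl12, at 450 ± 54.0 CPM in YCR and 390 ± 29.9 CPM in YAL (SD, n = 4, log2 0.23 ± 0.10, edgeR adjusted p = 0.475). The response to restriction in old minus that in young mice was tested directly with an interaction term, and 0 of 83 genes were called, against 0.0424% of all genes (0.0177% higher and 0.0247% lower). Its estimates were negative for 73 and positive for 10 genes, with a median of -0.13 against -0.03. Without YCR replicate 4 the median was -0.07 (60 negative and 23 positive) against 0.03, without OAL replicate 4 it was -0.08, and without OCR replicate 1 or OAL replicate 1 it was -0.20 or -0.19. With all libraries, 3 had an unadjusted p under 0.05 (8.93% of all genes). DESeq2 called 0 there as well.

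**Figure D2:**
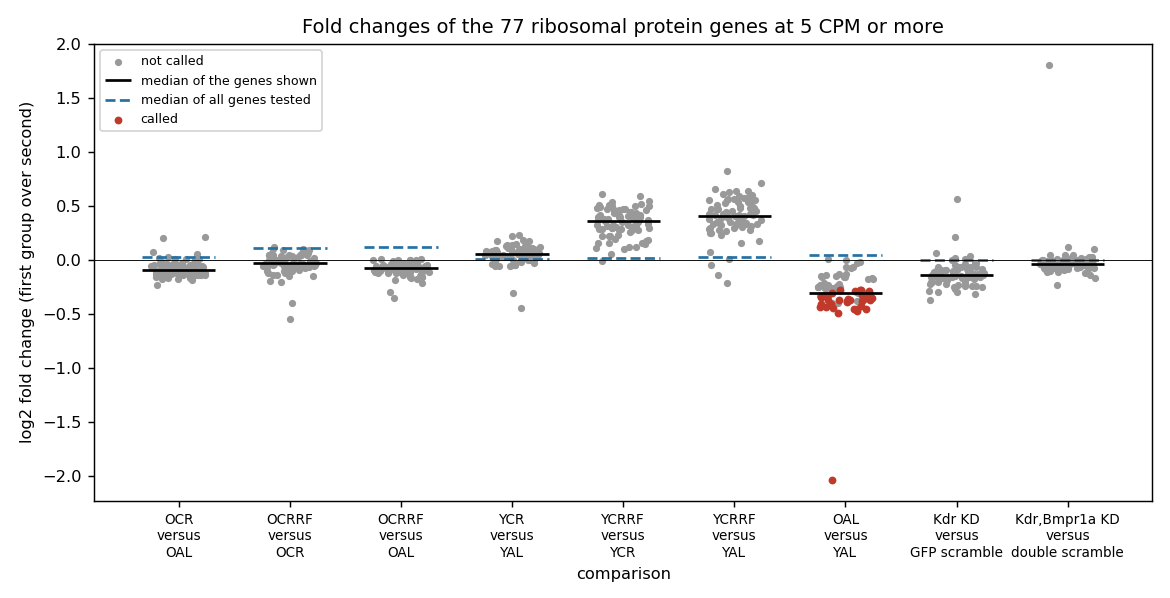
Log2 fold changes (y axis) of the 77 ribosomal protein genes at 5 CPM or more in 9 comparisons (x axis, first group over second). Points are genes, red where called; black lines are medians over the genes and dashed lines medians over all genes tested. All 36 called genes stand in OAL against YAL, where the lowest point is Rps4l at -2.04, and the highest point, at 1.81, is Rps4l in the double knockdown.

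Refeeding of young mice rested on the library that stood apart. With it, 80 of 81 estimates of YCRRF against YCR were positive, with a median of 0.37 against 0.02 over all genes. Without replicate 3 the median was -0.20 against -0.02. Against YAL it went from 0.41 to -0.13. No gene was called by edgeR or DESeq2 in either comparison (0.0102% and 0% of all genes by edgeR), none was free of overlap (2.99% higher and 2.53% lower of all genes against YCR, 1.28% and 1.94% against YAL), and 0 genes had an unadjusted p under 0.05 in either (7.27% and 3.69% of all genes). Without replicate 3, 17 genes reached an unadjusted p under 0.05 against YCR (21.0%, against 9.82% of all genes) and 4 against YAL (4.94% against 5.20%), and again 0 were called.

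In that library the rise ran through nearly the whole group. Of the 77 genes, 76 lay above every other YCRRF library (98.7%, against 30.8% of all genes of at least 5 CPM), by a median of 2.81-fold over the mean of the other 3, where the median over 12327 genes of at least 5 CPM was 0.921. Rpl13a was at 72.2 CPM against 11.3 to 22.1 CPM, Rps21 at 707 against 126 to 202 CPM, Rps12 at 1439 against 276 to 395 CPM and Rpl39 at 758 against 166 to 218 CPM. The smallest rises were those of Rpl4, at 1742 against 1046 to 1172 CPM, and Rpl3, at 2049 against 1238 to 1417 CPM. Rpl7l1 was the exception, at 213 CPM below the 234 to 290 CPM of the other libraries. Genes for ribosomal proteins of other names stood 2.48-fold higher there (median of 7 genes), other translation genes with TOP tracts 1.59-fold (18 genes), mitochondrial ribosomal protein genes 1.40-fold (77 genes) and ribosome assembly factors 0.909-fold (60 genes). Pseudogenes and predicted genes took 6.46% of its counts, against 3.26% to 3.71% in the other 3.

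The comparison of age gave the calls. Between OAL and YAL, 36 of 81 genes were called lower and 0 higher, or 44.4%, against 7.93% of 23525 genes called lower, 6.89% called higher and 14.8% called in either direction. The estimates were negative for 79 genes and positive for 2, with a median of -0.29 against 0.05 over all genes. Both subunits took part, with 22 of 45 large and 14 of 32 small subunit genes called. In 38 genes every OAL library lay below every YAL library (12.3% of all genes tested), and in 0 every one lay above (15.3%). At an unadjusted p under 0.05 there were 54 genes, against 30.8% of all genes. DESeq2 called 29 lower of 85 (34.1%, against 3.90% of all genes lower).

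The size of the difference was small and even for most genes. Rpl5 was at 340, 343, 373 and 382 CPM in OAL and at 540, 438, 553 and 455 CPM in YAL, with no overlap (log2 -0.45 ± 0.09, edgeR adjusted p = 0.00861). Rpl7a was at 203, 228, 229 and 264 CPM in OAL against 333, 297, 336 and 326 CPM (log2 -0.47 ± 0.08, adjusted p = 0.00623). Rpl6 was at 331 ± 26.7 against 457 ± 25.8 CPM (SD, n = 4, log2 -0.45, adjusted p = 0.00430). The old libraries were the lower ones for each of these large subunit genes. Rpl9, Rpl28 and Rpl8 were likewise called, at log2 -0.46, -0.45 and -0.43. Rpl13a, whose level is uncertain, was at 13.3 ± 1.46 against 19.0 ± 1.59 CPM (log2 -0.50, adjusted p = 0.0476 by edgeR). Rpl11 fell by 0.36 on the log2 scale (adjusted p = 0.0342) and Rpl26 by 0.41 (adjusted p = 0.0200).

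Among the small subunit genes, Rps6, the substrate of the S6 kinases, was at 396, 440.1, 456 and 477 CPM in OAL and at 573, 526, 547 and 534 CPM in YAL, without overlap (log2 -0.29 ± 0.07, edgeR adjusted p = 0.0201). Rps15 was called at -0.42 (adjusted p = 0.0208) and Rps14 at -0.32 (adjusted p = 0.0418, with overlap between the groups). Rps19 was at 891 ± 87.5 CPM in OAL and 1050 ± 87.6 CPM in YAL and did not pass (log2 -0.22, adjusted p = 0.107). Rps15a, Rpl22l1, Rps27l and Rps27 stood at -0.07, -0.03, -0.13 and 0.01, none called. Rpl3 passed on p (adjusted p = 0.0454 by edgeR) but its 0.23 fall on the log2 scale lay under the 1.2-fold limit.

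Rps4l was set apart from the rest by its size. It is annotated as a transcribed processed pseudogene on chromosome 6 (mm10, chr6:148354656-148355598, + strand), copied from the X-linked Rps4x. It was at 8.62, 4.62, 9.17 and 7.21 CPM in OAL and at 31.7, 35.6, 30.1 and 25.8 CPM in YAL (log2 -2.04 ± 0.22, edgeR adjusted p = 0.000365). All 10 old libraries lay between 4.62 and 15.5 CPM, and the young libraries between 12.7 and 44.4 CPM. Neither restriction nor refeeding was called for it. Rps4x itself was called at -0.38 (adjusted p = 0.0127 by edgeR). Reads that fit both genes cannot be told apart here.

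**Figure D3:**
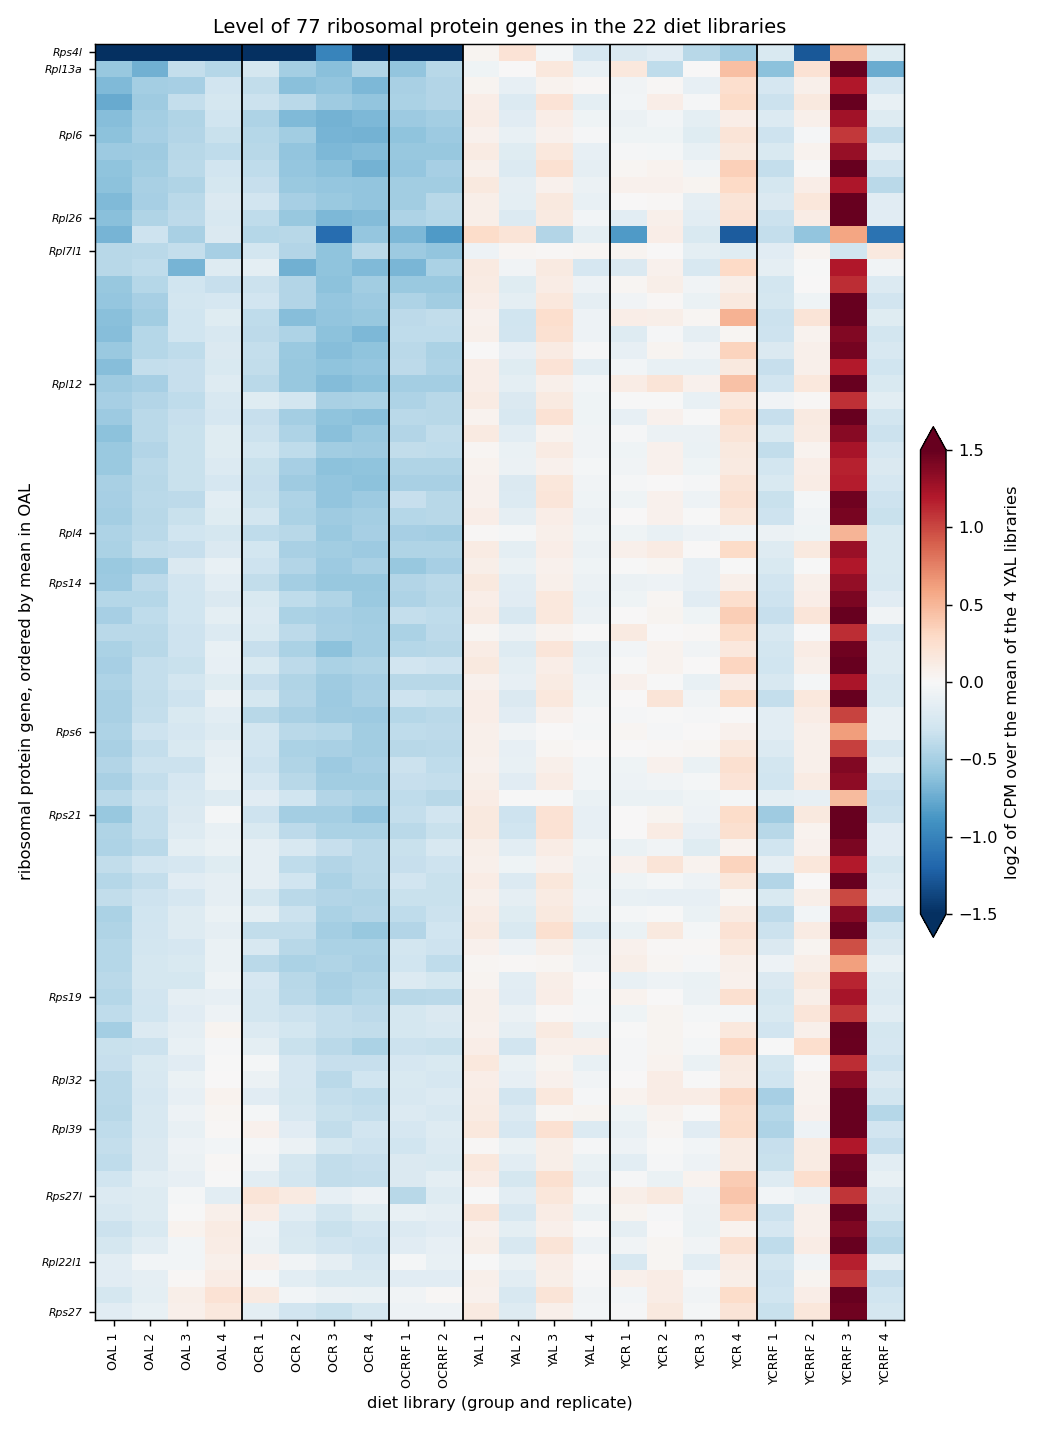
Level of the 77 ribosomal protein genes (rows, ordered by their mean in OAL relative to YAL, with some of the genes named) in the 22 diet libraries (columns), as log2 of CPM over the mean of the 4 YAL libraries. Blue is lower and red is higher; the old libraries are blue for most genes, Rps4l is darkest, and YCRRF replicate 3 is red for all genes but Rpl7l1.

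How many of the genes passed depended on the scaling and on single libraries, while the direction did not. With DESeq2 size factors inside edgeR 22 genes were called (27.2%, against 5.65% of all genes called lower), with library totals 12 (14.8% against 4.12%), and with TMM factors from genes of at least 5 CPM 7 (8.64% against 3.33%). In 1 fit of all diet groups, 3 of 84 were called (3.57% against 3.43%), a share near that of all genes. Without OAL replicate 1 the count was 11 (13.6% against 3.55%), without OAL replicate 2 it was 11 (13.4% against 3.84%), without OAL replicate 3 it was 16 (19.8% against 4.47%), and without YAL replicate 2 it was 54 (65.9% against 9.02%). Over 18 other settings no gene was called higher, 73 to 83 genes were negative, and the median lay between -0.36 and -0.18. Rps4l and Rpl7l1 were called in all 18, and Rpl5, Rpl6, Rpl7a, Rpl8 and Rpl9 in 17. The old and the young mice came from different colonies, and the old libraries detected more genes at low counts, with 0.055% to 0.155% of counts on olfactory and vomeronasal receptor genes against 0.007% to 0.050%. Age, colony and these library properties cannot be told apart.

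Other genes of the pathway are given by list, to be read against the 7.93% of all genes called lower and 6.89% called higher in OAL. Of 8 ribosomal proteins with other symbols, 5 were called lower in OAL, among them Rack1 (log2 -0.48), Rpsa (-0.42) and the stalk protein Rplp0 (-0.37). Of 18 further translation genes with TOP tracts, 8 were lower and 0 higher, led by the elongation factor subunits Eef1d (-0.65) and Eef1b2 (-0.53). Of 60 ribosome assembly factors, 26 were lower and 0 higher, among them the rRNA methyltransferase Nop2 (-0.62), Rrs1 (-0.59), Nolc1 (-0.58) and the 40S maturation factor Ltv1 (-0.55). Of 12 genes of RNA polymerase I, which makes ribosomal RNA, 5 were lower and 0 higher (Tcof1 -0.45). Of 77 mitochondrial ribosomal protein genes tested, 23 were lower and 0 higher, with a median of -0.29, the same as in the cytosolic group. In the list of mTORC1 and its regulators, 1 of 19 was higher, Ddit4 (log2 1.68). The 4 lower ones were Sesn2 (-0.52), Tsc2 (-0.52), Rps6kb2 (-0.43) and Larp1 (-0.32).

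Markers of other cell states differed between the same groups. Of 22 cell cycle genes 13 were called lower in OAL, with a summed level of 1229 to 1352 CPM in OAL and 1962 to 2226 CPM in YAL. Flt3 (which encodes Flk2) and Cd34, whose products the diet sort selected against, and Cd48, which was gated only in the transplanted cells, were all 3 called lower, with sums of 129 to 160 and 173 to 223 CPM. Of 13 granulocyte and monocyte genes, 1 was higher and 4 lower (659 to 827 and 575 to 1362 CPM), and of 10 B and plasma cell genes, 1 was higher and 5 lower (43.8 to 269 and 98.1 to 196 CPM). Of 10 erythroid genes, 1 was higher and 3 lower (49.3 to 247 and 67.6 to 168 CPM). Higher in OAL without overlap of the sums were the megakaryocyte genes, 3 of 7 called (569 to 662 against 300 to 316 CPM), and the T and NK cell genes, 2 of the 5 tested (59.8 to 70.6 against 25.2 to 42.9 CPM). Of 7 stroma and endothelium genes 1 was higher, and of 10 HSC genes 1 was lower. None of the genes in these lists was at 0 throughout either group. Their part in the result was not tested.

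The pattern with restriction differed. Of all genes tested, 2.54% were called higher and 3.03% lower in OCR against OAL. In OCRRF against OCR these shares were 0.694% and 2.71%. Of the same 22 cell cycle genes, 21 were called higher in OCR than in OAL (median log2 1.29, with Ccnb2 at 2.13, Top2a at 1.94 and Mki67 at 1.79) and 22 lower after refeeding (median -1.49). The ribosomal protein genes had 0 calls in both comparisons. Ribosome assembly factors had 0 of 60 in the first and 3 lower in the second, namely Bop1 (-0.59), Noc2l (-0.49) and Nolc1 (-0.45). Mitochondrial ribosomal protein genes had 1 higher and then 2 lower of 77, neither above the share over all genes. RNA polymerase I genes had 0, and then Ubtf lower (-0.44). The refed libraries also lay below OAL in part. There 8 of 60 assembly factors, 6 of 77 mitochondrial ribosomal protein genes and 2 of 12 RNA polymerase I genes were called lower. None was called higher, where 2.48% of all genes were lower and 1.66% higher. In young mice Top2a alone of the cell cycle genes was called higher under restriction (0.68), where 0.0642% of all genes were. Markers of other cells moved too between OCR and OAL: of 10 erythroid genes 1 was higher and 4 lower (54.7 to 87.6 against 49.3 to 247 CPM), and of 10 B and plasma cell genes 2 were lower (43.2 to 51.1 against 43.8 to 269 CPM). Their part was not tested. The comparisons OCR with OAL and OCRRF with OCR share the OCR libraries.

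**Figure D4:**
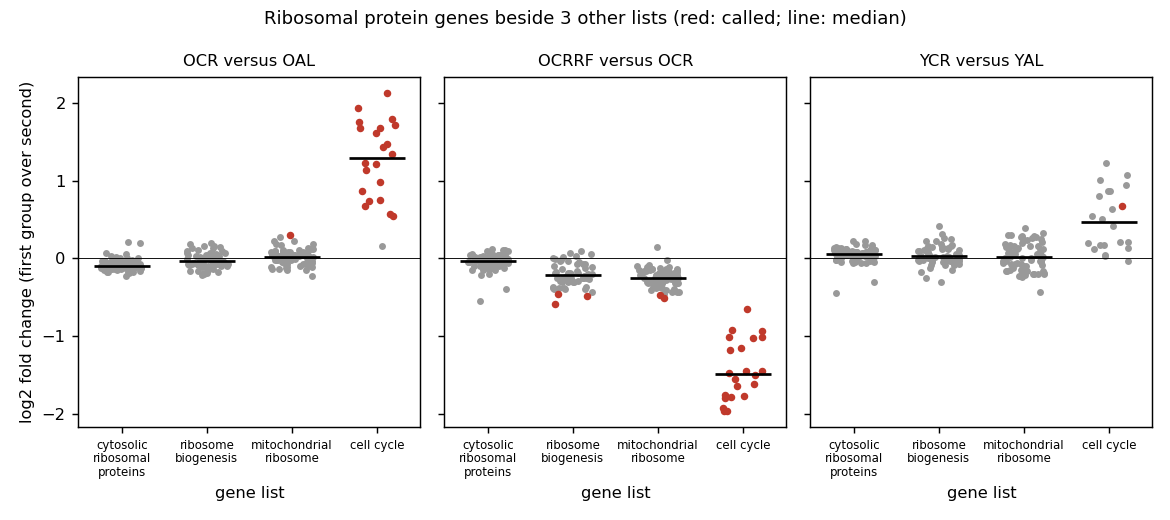
Log2 fold changes (y axis) of the ribosomal protein genes and of ribosome biogenesis, mitochondrial ribosome and cell cycle genes (x axis) in 3 diet comparisons (panels). Points are genes, red where called, and lines are medians; the cell cycle medians are 1.29, -1.49 and 0.47 from left to right, and those of the ribosomal protein genes -0.10, -0.03 and 0.05.

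Knockdown of Kdr, the receptor for VEGF, or of Kdr with the BMP receptor Bmpr1a gave no call. Under the Kdr shRNA the 85 genes took 2.53%, 2.17%, 2.18% and 2.59% of counts against 2.58% and 2.68% under the GFP scramble. Replicates 2 and 3 were the low ones, and replicate 4 lay between the scrambles. The same 2 libraries had the lowest share of mitochondrial counts, 0.440% and 0.524%, against 0.644% to 0.778% in the other Kdr shRNA and GFP scramble libraries. Of 81 genes 0 were called by edgeR or DESeq2 (0.0149% of 20098 genes by edgeR) and 4 had an unadjusted p under 0.05 (8.90% of all genes), with a median of -0.14 against -0.00. Leaving out 1 library kept the median between -0.18 and -0.10, while the number at an unadjusted p under 0.05 went from 0 (without replicate 3 or without either scramble) to 22 (without replicate 4), with 2 and 9 without replicates 2 and 1. Every knockdown library lay below both scrambles in 22 genes, where 11.3% of all genes did, and above both in 1 (10.6%). Rps21 was the lowest in estimate, at 76.4, 56.2, 57.1 and 73.5 CPM against 84.8 and 85.7 CPM (log2 -0.37 ± 0.14, edgeR adjusted p = 0.482), followed by Rpl36 at -0.29 and Rps27 at -0.29.

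With both shRNAs the shares were 2.69%, 2.57%, 2.48% and 2.40% against 2.52% and 2.70% in the double scramble, which overlap. Of 81 genes 0 were called by either tool (0.00498% of 20072 genes by edgeR) and 0 had an unadjusted p under 0.05 (9.85% of all genes), with a median of -0.04. The median was 0.02 without double scramble replicate 2 (47 positive and 34 negative), -0.07 without double scramble replicate 1, and -0.06, -0.02 and -0.01 without knockdown replicates 1, 3 and 4. Without overlap, 2 genes were higher (10.5% of all genes) and 5 lower (10.8%). Rps4l had the largest estimate, 1.81, from a single library at 21.0 CPM (replicate 1), with the others at 0.858, 7.34 and 3.73 CPM against 3.47 and 1.23 CPM (edgeR adjusted p = 0.636). Rpl7l1 lay at 313 ± 9.22 CPM (SD, n = 4) against 291 CPM (n = 2), log2 0.10.

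At the chromatin, 81 of the genes had a promoter in the deposited H3K4me3 and H3K27me3 tables of OCR HSCs. H3K4me3 marks active promoters and H3K27me3 marks repressed ones. For each gene the start with the highest H3K4me3 was used, for all genes alike, and no OAL histone file was analysed here. The median H3K4me3 signal per base was 48.7 and 46.8 in the 2 libraries at these promoters, against 10.8 and 10.2 over 25126 promoters, and 31.1 at mitochondrial ribosomal protein genes (mean of both libraries). H3K27me3 was 0.122 and 0.128 against 0.324 and 0.327. The genes with little or no RNA had little H3K4me3: Rpl32l was at 0.159, Rpl3l at 0.335, Rpl10l at 0.670 and Rpl39l at 0.830, and Rps4l stood between at 4.52.

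The X-linked genes had lower H3K4me3 signals. Rpl36a, Rps4x, Rpl39 and Rpl10 had H3K4me3 signals of 21.5, 21.6, 24.3 and 24.3, where 73 autosomal ribosomal protein genes of at least 5 CPM had a median of 48.1. Over all genes of at least 5 CPM, X-linked promoters had a median of 16.9 (373 genes) and autosomal ones 30.5 (10960 genes). Male cells hold a single X chromosome, and its part in these signals was not tested. In RNA per kilobase of the OCR libraries the 4 X-linked genes had a median of 147 CPM per kb and the autosomal ones 177 CPM per kb. Rps4x, at 314 CPM per kb, was above the autosomal median, and Rpl36a (112), Rpl39 (141) and Rpl10 (154) were below it.

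**Figure D5:**
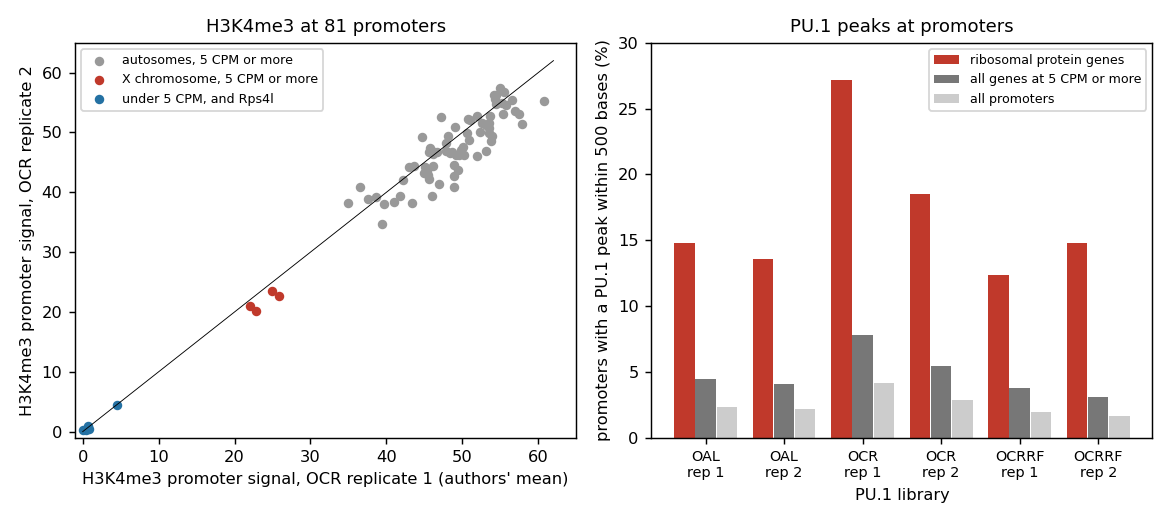
Left, H3K4me3 signal per base at 81 ribosomal protein promoters in OCR replicate 1 (x axis) against replicate 2 (y axis); the 4 X-linked genes (red) lie between 20.2 and 25.9, and those under 5 CPM with Rps4l (blue) at the bottom. Right, share of promoters with a PU.1 peak within 500 bases (y axis, %) in each of the 6 PU.1 libraries (x axis). The shares are 12.3% to 27.2% for ribosomal protein genes, 3.11% to 7.81% for all genes of at least 5 CPM and 1.64% to 4.14% for all promoters.

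No difference in accessible chromatin between OCR and OCRRF was called at these promoters by edgeR's test. A peak of accessibility lay at 71 of the 81 promoters (87.7%, against 63.7% of all). Among autosomal genes of at least 5 CPM the share was 91.8% for ribosomal protein genes and 94.6% for all genes. On the X chromosome these shares were 100% and 97.1%. At mitochondrial ribosomal protein genes it was 94.9%. In the ribosomal protein group 70 peaks were tested. Of these 0 were called (adjusted p under 0.05, fold change over 1.5 and mean log2 CPM over 1.5), against 0.221% of 123372 peaks and 0.105% of 14303 promoter peaks, and 6 had an unadjusted p under 0.05 (11.7% of all peaks). The peak at Rps19 was at 54.0, 56.0, 53.5 and 57.0 CPM in OCR and 64.0 and 59.6 CPM in OCRRF (log2 -0.20 ± 0.07, adjusted p = 0.198 by edgeR). That of Rpl21 was at 28.9, 25.4, 26.6 and 25.4 CPM against 22.9 and 19.6 CPM (log2 0.29 ± 0.10, adjusted p = 0.205 by edgeR). These 2 had the lowest unadjusted p of the 70 peaks (0.00579 and 0.00635 by edgeR). The groups did not overlap at either peak, but the share of all peaks without overlap was not computed.

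PU.1, the product of Spi1, is an ETS factor of the blood lineage that binds GGAA cores. Peaks had been called in each library apart. A peak lay within 500 bases of the start of 12 and 11 of the 81 promoters in the OAL libraries (14.8% and 13.6%), of 22 and 15 in OCR (27.2% and 18.5%), and of 10 and 12 in OCRRF (12.3% and 14.8%). The same 6 libraries had peaks at 2.34%, 2.15%, 4.14%, 2.84%, 1.95% and 1.64% of all promoters and at 4.45%, 4.04%, 7.81%, 5.42%, 3.76% and 3.11% of promoters of genes of at least 5 CPM. The OCR libraries had the most peaks at these genes and also the most in all, 5464 and 3852, against 2262 to 3046 in the other 4. With 2 libraries a group, no test between diets was made. Counting within 1000 bases changed none of the 6 counts.

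At least 1 library had a peak at 25 of the 81 genes (30.9%, against 5.27% of all promoters), and all 6 libraries at 7 (8.64% against 0.947%), among them Rpl10, Rpl17, Rpl27, Rps3, Rps12 and Rps19. These pooled shares were not computed for genes of at least 5 CPM, whose promoters held peaks more often than all promoters in each library. Enrichment over the local background ran from 10.3 to 14.8-fold at Rpl10 and from 7.14 to 11.3-fold at Rps12. At Rps19 it was 7.88 and 8.78-fold in OAL, 10.3 and 9.74-fold in OCR and 7.12 and 5.63-fold in OCRRF. Of 5 of the 7 genes with a RefSeq promoter, Rpl10, Rps12 and Rps19 held a GGAA or TTCC core within 15 bases of the median summit. A window of that size and place holds such a core in 30.8% to 31.3% of genes. The windows shown were placed around the core nearest the median summit of these genes. Summits of single libraries ran from -169 to -133 bases from the start at Rpl10 and from -108 to -48 at Rps12. At Rps19 they ran from -232 to -136, so at each gene some lie outside the window. With each core in capitals, the windows lie at chrX:74270648-74270677 (+) for Rpl10, chr10:23787296-23787325 (-) for Rps12 and chr7:24884409-24884438 (+) for Rps19 (RefSeq, mm10).
Rpl10: cgccagcatgcagTTCCctaTTCCggtatc
Rps12: taaaggcGGAAgtGGAAactcctaaggcac
Rps19: cgcccaaGGAAacGGAAagaGGAAccagat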

How the data were processed

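RNA-seq values were deposited as raw counts per gene: the authors trimmed reads, aligned them with STAR to mm10 with GENCODE M22 genes and counted them with featureCounts, whose strand and multimapping settings are not given in the sources used here. The ATAC files held deposited counts per consensus peak, the histone files a signal (coverage) per promoter window computed by the authors, and the PU.1 files MACS2 peaks called per library with the score, the fold enrichment ratio and −log10 p and q deposited. Counts were tested with edgeR 4.0.16 in R 4.3.3 (quasi-likelihood, filterByExpr, TMM, Benjamini-Hochberg over all genes), with only the groups compared in each fit. A gene was called at adjusted p under 0.05 and a fold change over 1.2. DESeq2 1.42.0, other scalings, filters, fits and single libraries left out were alternatives. Scripts were tested on simulated data. Exon lengths and overlaps came from GENCODE M21. No 2 replicates agreed within sampling noise (8.17 to 336 chi-square per gene). Total counts were 11102898 to 44780217. The genes named were those called with the largest change (up to 10), up to 5 of the highest per kilobase, fixed paralogue pairs, a fixed set with known roles, and called genes of fixed lists. Genes outside that rule, such as Rps12, Rps21, Rpl4, Rpl12 and Rpl21, were chosen after their values were seen. Values of a few single genes are not reported here, though counts and medians include them. Members and lists were chosen with earlier results of these data known. OAL files of ATAC, H3K4me3 and H3K27me3 (8 samples without files in all) were not analysed here.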

Additional observations from a re-analysis of the deposited data

Results flagged for a closer look

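In groups of 4 libraries the highest or lowest library was compared with the spread of the others by Dixon's ratio. The share of counts on the 85 genes was 7.61% in YCRRF replicate 3, with a gap of 0.829 of the group's range to the next library. Gene by gene, that library was far above the others for 58 of 77 genes. Elsewhere the counts were few: OCR replicate 1 was high for 4 and OCR replicate 3 for 1, YCR replicate 4 was high for 5, the library with Kdr and Bmpr1a shRNAs replicate 1 was high for 3, and YAL replicate 1 and YAL replicate 2 were low for 1 each. Chance gives about 5% of groups. The genes of 1 library are not independent.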

How the results depend on the processing

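Of the comparisons with 0 calls, OCR with OAL, YCR with YAL, both knockdowns, the interaction and ATAC stayed at 0 in every setting run. OCRRF against OCR went to 1 with DESeq2, with the replicate block and at most when 1 library was left out (0 to 1), each time Rps27l. OCRRF against OAL went to 2 with DESeq2. Without a filter YCRRF against YCR went to 2 and YCRRF against YAL to 1 (Rps21 and Rps12). The 36 calls of OAL against YAL became 22 with DESeq2 size factors, 12 with library totals, 7 with TMM from genes of at least 5 CPM, 10 with at least 10 counts in every library, 3 in 1 fit of all diet groups, and 11 to 54 with 1 library left out. With the replicate number as a block the count was 23. Deviations of same-numbered libraries correlated at -0.17 to 0.13, so the numbers were not taken to pair the samples, and the block changed no other count, though it turned the median of OCRRF against OAL to 0.03. Where a setting changed a count, the cause was not tested. Without mitochondrial, receptor, Gm and -ps genes in the total, the share of counts was 3.16% in OCR, 3.49% in OCRRF and 2.72% in the GFP scramble. With ribosomal proteins of other names it was 3.26% in OCR, 3.53% in OCRRF, 3.96% in YAL, 4.12% in YCR, 2.88% in the GFP scramble, 2.60% under the Kdr shRNA, 2.86% in the double scramble and 2.78% under both shRNAs. Groups of 2 libraries limit OCRRF and the scrambles.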

Other observations

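In the list of p53 and its targets (12 genes), Ccng1 was called lower in OCRRF than in OCR (log2 -0.45, edgeR adjusted p = 0.0368) and lower in OCRRF than in OAL (-0.27, adjusted p = 0.0477). Between OAL and YAL, 3 of the 12 were called lower, Bbc3 (-0.76), Sesn2 (-0.52) and Trp53 (-0.39), and 0 higher. Of all genes, 7.93% were called lower there and 6.89% higher. Of 11 genes of the Myc family and its partners, Mycn was called lower in OCR than in OAL (log2 -0.55, adjusted p = 7.79e-05 by edgeR) and lower in YCR than in YAL (-0.83, adjusted p = 0.0335), and Mxd3 was called lower in OCRRF than in OCR (-0.60, adjusted p = 0.0373). Sesn1, a regulator of mTORC1, was called lower in OCR than in OAL (-0.29, adjusted p = 0.0321).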
